A study of Mus musculus with 4 samples.

Results

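The genes described here are 39 interferon response genes, which are messenger RNAs that cells make more of after an interferon has bound its receptor. They were chosen by name, as the rows of a deposited count table whose Ensembl identifier belongs to a listed interferon-inducible gene. All 39 were found among the 41128 gene rows of that table. By known role they comprise 18 antiviral effectors, 4 genes of cytoplasmic RNA sensing, 4 transcription factors, 6 immune GTPases and 7 feedback or other induced genes.

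The RNA came from livers of C57BL/6 mice given alcoholic hepatitis, and every library below shares that strain and treatment. Per the labels, the mice ate a high cholesterol fat diet freely for 40% of their calories and received the other 60% as liquid diet with alcohol, delivered into the stomach, with a weekly binge on top. Livers were digested, hepatocytes were spun out, and leukocytes bearing CD45 were depleted on magnetic beads, which left the presorted CD45- cells. Part of these was stained for Prom1 (CD133, a surface glycoprotein of bile duct and progenitor cells) and CD49f (integrin alpha 6) and sorted into gates that the design text numbers R6 (Prom1+CD49f+CD45-), R5 (Prom1-CD49f+CD45-) and R8 (Prom1+CD49f+CD45+). Each of the 4 populations had 1 library made from the pooled RNA of 2 mice, and the labels name no untreated or control-diet group. The sources used here give neither age nor sex of the mice.

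Type I interferons (alpha and beta) signal through Ifnar1 and Ifnar2, type III (lambda) through Ifnlr1 and Il10rb, and type II (gamma) through Ifngr1 and Ifngr2. The first 2 types activate the kinases Jak1 and Tyk2 and a complex that includes Stat2 and Irf9, which binds the interferon-stimulated response element (ISRE), while gamma acts through gamma-activated sites (GAS). The products block viral entry, translation and budding, attack vacuoles that hold microbes, and feed back on the signal. In the liver, type I interferon acts on most cell types, whereas the lambda receptor is known mainly from epithelial cells.

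The promoter stretches that carry the ISRE core are printed here for 6 of the 7 members that were more than 2-fold lower in R6 than in each other library, for Isg15, and for genes beside them or of related families that differed less. Ifitm3, the other one of the 7, is not shown because its core does not lie wholly before the start. Capitals mark the ISRE core, GAAANNGAAA or its reverse complement TTTCNNTTTC, and overlapping matches run together. The sequences are from RefSeq on GRCm38.p6, are written 5′ to 3′ on the strand of the gene, and lie before the RefSeq start site.
Ifit3, distal: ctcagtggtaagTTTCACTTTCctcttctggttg
Ifit3, proximal: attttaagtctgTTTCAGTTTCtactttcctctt
Ifit1: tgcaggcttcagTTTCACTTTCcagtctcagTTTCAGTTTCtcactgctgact
Rsad2: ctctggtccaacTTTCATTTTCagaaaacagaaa
Bst2: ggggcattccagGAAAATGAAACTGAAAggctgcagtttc
Gbp7: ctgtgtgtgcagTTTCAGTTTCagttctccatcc
Gbp3: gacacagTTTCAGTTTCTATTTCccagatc
Gbp2: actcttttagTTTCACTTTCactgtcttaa
Isg15: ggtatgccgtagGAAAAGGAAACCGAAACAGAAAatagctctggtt
Igtp: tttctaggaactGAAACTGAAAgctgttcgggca
Irgm1: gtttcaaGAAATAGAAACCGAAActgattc

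On the plus strand, the Ifit3 stretches lie at chr19:34583361-34583394 and chr19:34583395-34583428, with their cores 156 to 147 and 122 to 113 bases before the start. Those of Ifit1 lie at chr19:34640773-34640825, Gbp7 at chr3:142530271-142530304, Gbp3 at chr3:142559992-142560021, Gbp2 at chr3:142620594-142620623 and Igtp at chr11:58199510-58199543. On the minus strand, those of Rsad2 lie at chr12:26456551-26456584, Bst2 at chr8:71537575-71537614, Isg15 at chr4:156200863-156200908 and Irgm1 at chr11:48871428-48871457. In GENCODE vM21 all are upstream of the gene except the stretch of Gbp2, which crosses the annotated gene start, and that of Irgm1, which lies inside a gene annotated from further upstream. RefSeq promoters of 300 bases (250 before and 50 after the start) were found for 29 of the 39 members, and 17 of these (58.6%) held the ISRE core on either strand, against 3.44% of all 32851 promoters of that length. Within the 250 bases before the start the counts were 13 of 29 (44.8%) and 2.98%. The GAS core TTCNNNGAA, which reads the same on both strands, was in 9 of 29 (31.0%) against 8.30%. A match is a run of letters and not a shown binding site.

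Depth ran from 14670414 to 52294143 counts a library, and 38 of the 39 members had at least 10 counts in every library. Levels are CPM (counts scaled to 1000000 per library) adjusted with the TMM method (a trimmed mean of log ratios between libraries), written TMM-scaled CPM, and 3 counts correspond to between 0.068 and 0.212 on that scale. Olfactory, vomeronasal and trace amine receptor genes, which the liver is not known to express, were used as a background, and the 95th percentile of the 1471 such genes was 0.817 in R6, 0.353 in R5, 1.09 in the library labelled R8 and 0.0450 in the presorted library. Oas2 in R6 and Oas3 in R5 were at or below that level, and no other member was. The sorted gene Prom1 was at 355, 31.1, 11.4 and 67.1 TMM-scaled CPM in the same order, Ptprc, which encodes CD45, at 6.33, 3.60, 14.5 and 21.0, and Itga6, which encodes CD49f, at 72.9, 50.5, 127 and 110. Prom1 and Ptprc were thus both lower in the library labelled R8 than in the presorted cells, which goes against its label, so it is named by its label throughout. Itga6 was lower in R6 and R5 than in the presorted cells, which goes against the CD49f+ part of their labels, so R6 and R5 also name libraries as labelled. Ptprc was highest in the presorted library, which goes against its CD45- label, so that name too is the label's.

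Levels of the 39 genes were lowest most often in R6 and highest most often in R5. Summed over the members, they came to 2281 TMM-scaled CPM in R6, 5284 in R5, 3768 in the library labelled R8 and 3378 in the presorted library. The median member was at 35.9, 52.5, 63.2 and 64.1 in that order, and Ifitm3 gave 1691 of the sum in R5. Of the 39 members, 21 were lowest in R6, as were 22.9% of all 21640 genes tested, and 21 were highest in R5, as were 19.6% of all genes. The library labelled R8 held the highest level of 14 members, against 35.5% of all genes. Per kilobase of exon, the most abundant members in the presorted library were Ifitm3 at 962 TMM-scaled CPM per kilobase, Bst2 at 306 and Ifi27 at 98.3, and the least abundant was Oas3 at 0.242. The scale per length assumes reads along the whole transcript, and the series title and the labels' protocols differ on that point.

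**Figure D1:**
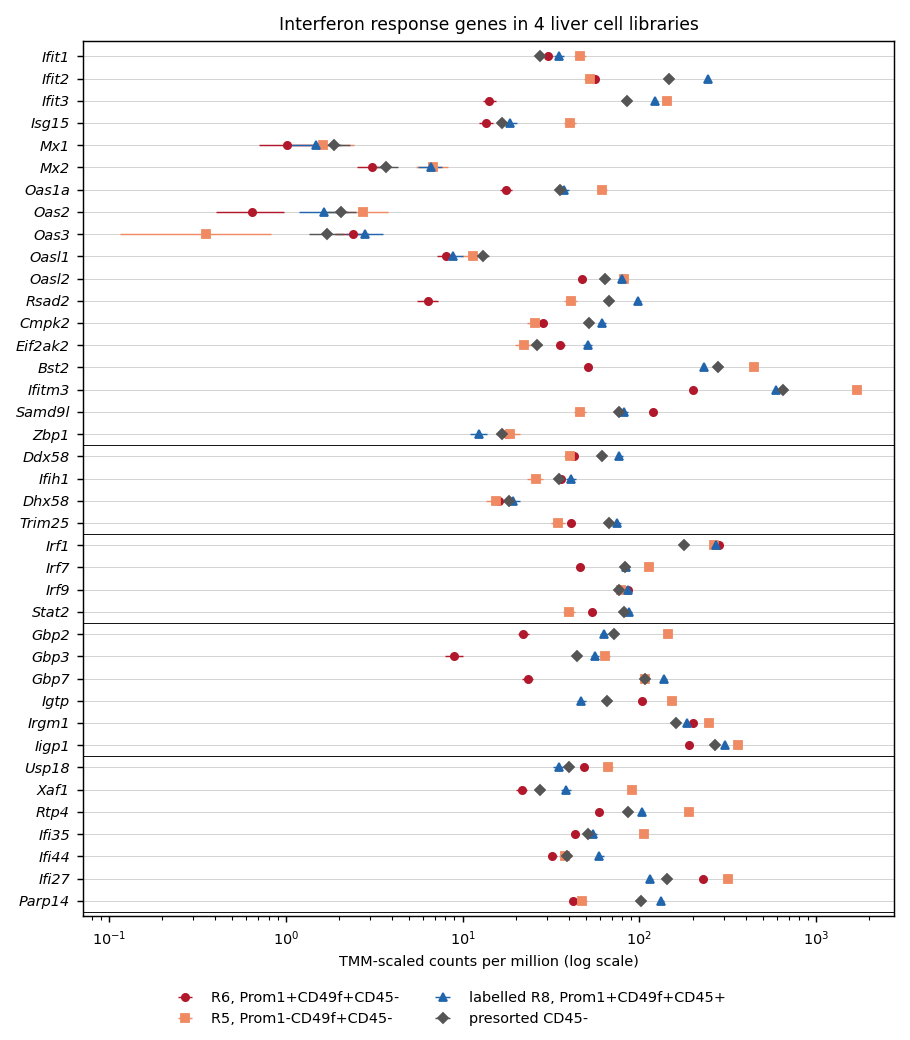
Level of each of the 39 interferon response genes in the 4 libraries, in TMM-scaled CPM on a log axis. Points are single libraries, bars are exact 95% Poisson intervals for counting error, and black lines part the roles. R6 lies apart on the left for Ifit3, Rsad2, Bst2, Ifitm3, Gbp2, Gbp3 and Gbp7, while the levels of Ifih1, Dhx58, Irf1 and Irf9 lie close together.

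In the sets of 4 values that follow, levels are TMM-scaled CPM in the order R6, R5, library labelled R8, presorted. Ratios between libraries carry an exact 95% interval for counting error. A call of higher or lower needs the whole interval to lie beyond 2-fold. With 1 library a population there is no replicate error, no test was made, and no difference has a replicate check. In bulk RNA, fewer cells that express a gene and less RNA of it per cell cannot be told apart.

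Among the antiviral effectors, 4 stood well below the other libraries in R6. Ifit3 was at 14.2, 144, 123 and 84.8. Rsad2 (viperin, which makes a chain-terminating nucleotide) was at 6.36, 41.0, 98.1 and 67.2. Bst2 (tetherin, which holds budding virions at the cell surface) was at 51.0, 443, 233 and 277. In each of these genes R6 was the lowest library, and the nearest other level was 5.97 times higher for Ifit3, 6.44 times for Rsad2 and 4.56 times for Bst2. Ifitm3, which stops viruses in endosomes, was at 202, 1691, 593 and 652, so the nearest level was 2.93 times higher. R5 held the highest level of Ifit3, Bst2 and Ifitm3, and the library labelled R8 that of Rsad2.

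Other effectors were divided. Isg15, a ubiquitin-like modifier, was at 13.6, 40.6, 18.5 and 16.7 and stood out as high in R5. The oligoadenylate synthase gene Oas1a, whose product is made active by double-stranded RNA, was at 17.6, 61.3, 37.4 and 35.8, and the last 2 levels did not differ beyond counting error. Oasl2, a relative of the synthases, was at 47.4, 81.5, 79.6 and 64.1 and Oasl1 at 8.11, 11.5, 8.78 and 13.1. Both were lowest in R6, with spans under 2-fold, and for Oasl1 R6 and the library labelled R8 did not differ beyond counting error. Ifit1, of the same family as Ifit3, was at 30.6, 46.0, 35.1 and 27.6, so its lowest level was in the presorted library. Ifit2 was at 55.8, 52.5, 245 and 147, with the 2 sorted CD45- libraries equal within counting error and both far below the others. Cmpk2, a nucleotide kinase gene beside Rsad2, showed the same order of groups at 28.4, 25.7, 61.8 and 52.1.

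Eif2ak2, the kinase PKR that halts translation on double-stranded RNA, was at 35.8, 22.2, 50.9 and 26.5. Samd9l, a restrictor of translation and growth, was at 120, 46.3, 82.1 and 76.9, and its highest level was in R6, against the direction of the genes above. Zbp1, a sensor of left-handed nucleic acid that can start necroptosis, was at 17.9, 18.6, 12.4 and 16.7 and was nearly level. The remaining effectors had few counts. Mx2, a dynamin-like GTPase, was at 3.09, 6.78, 6.61 and 3.69. Oas2, Oas3 and Mx1, a gene known to be disrupted in C57BL/6 mice, stayed between 0.353 and 2.82 in all libraries.

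RNA sensing genes differed by less than 2-fold in each of the 5 comparisons. Ddx58 (RIG-I, a sensor of viral RNA ends) was at 42.6, 40.6, 77.2 and 61.7. Ifih1 (MDA5, a sensor of long double-stranded RNA) was at 35.9, 25.9, 41.1 and 35.2. Both were highest in the library labelled R8 and lowest in R5, though for Ddx58 R5 and R6 did not differ beyond counting error. Dhx58 (LGP2, their regulator) was at 16.0, 15.5, 19.3 and 18.3, and Trim25, a ubiquitin ligase of the Ddx58 pathway, at 40.9, 34.8, 75.0 and 67.4. None of the 4 was called in any of the 5 comparisons. These did not include R5 against the library labelled R8, the pair in which all 4 lay farthest apart.

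Of the transcription factors, Irf7, which amplifies the type I response, was at 46.0, 113, 84.4 and 83.0 and was lowest in R6. Irf1, a factor of the gamma response, was at 282, 265, 273 and 179, so its lowest level was in the presorted library. Irf9, the DNA-binding part of the type I complex, was at 86.6, 78.8, 86.7 and 77.0, and neither its 2 upper nor its 2 lower levels differed beyond counting error. Stat2, its partner, was at 54.2, 40.0, 87.1 and 81.4. Irf7 was the only one of the 4 called in a comparison.

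The GTPases, which act on vacuoles that hold microbes, differed among themselves. The 3 guanylate-binding members were low in R6: Gbp2 was at 22.0, 146, 63.2 and 71.9, Gbp3 at 8.99, 64.0, 56.4 and 44.6, and Gbp7 at 23.4, 108, 138 and 108. The nearest other level was 2.87 times higher for Gbp2, 4.96 times for Gbp3 and 4.59 times for Gbp7. The 3 immunity-related GTPase members were not called lower there, and each had its lowest level in a different library. Igtp was at 103, 153, 46.8 and 65.6, and Irgm1, which guards host membranes, at 200, 246, 187 and 162. Iigp1 was at 190, 362, 303 and 268. Igtp was thus lowest in the library labelled R8, Irgm1 in the presorted one, and Iigp1, by less than 2-fold, in R6. Reads of Gbp and immunity-related GTPase paralogs can be divided among near-identical copies, which makes single members of these families uncertain.

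The feedback and other induced genes were mostly highest in R5. Usp18, which strips the Isg15 protein from targets and dampens type I receptor signalling, was at 48.4, 66.1, 34.9 and 39.8. Xaf1, a promoter of apoptosis, was at 21.7, 90.6, 38.5 and 27.3, and Rtp4, a receptor chaperone, at 59.1, 192, 103 and 85.9. Ifi35, a partner of Nmi, was at 43.5, 106, 54.7 and 51.5. In these 4 genes the level in R5 lay above the other libraries by more than counting error. Ifi27 was at 228, 318, 115 and 144, and Parp14, an ADP-ribosyltransferase, at 42.0, 47.1, 133 and 102. Ifi44 was at 32.2, 38.1, 59.5 and 39, and R5 and the presorted library did not differ beyond counting error (ratio 0.977, 0.886 to 1.08). Ifi44 and Parp14 were highest in the library labelled R8.

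In the comparison of R6 with R5, whose labels differ by Prom1, 14 of 39 members (35.9%) were lower in R6 and 2 (5.13%) were higher. Among all 21640 genes tested, 12.7% were called lower and 15.5% higher. Of the 15557 genes with at least 50 counts in a library, 2463 were lower and 2930 higher. The median log2 ratio was -0.57 over the members and 0.45 over all genes. The latter depended on scarce genes: it was 0.26 at 50 or more counts and -0.28 with no filter beyond 1 count. The farthest from 1 were Ifit3, 10.2-fold lower (9.19 to 11.2), Bst2, 8.68-fold (8.23 to 9.16), and Ifitm3, 8.35-fold (8.13 to 8.58). Gbp3 was 7.12-fold lower (6.25 to 8.13), Gbp2 6.61-fold (6.08 to 7.20), Rsad2 6.44-fold (5.50 to 7.56) and Gbp7 4.59-fold (4.21 to 5.01). The other members called lower were Oas2, Xaf1, Oas1a, Rtp4, Isg15, Irf7 and Ifi35, from 4.29-fold (2.48 to 7.60) for Oas2 down to 2.43-fold (2.26 to 2.61) for Ifi35. They thus came from the effectors (7 of 18), the GTPases (3 of 6), the feedback and other genes (3 of 7) and the factors (1 of 4), and from none of the 4 sensor genes. Samd9l was 2.59-fold higher (2.39 to 2.82). Oas3 was 6.77-fold higher (2.79 to 21.4), a value that rests on 5 counts in R5, at the background level there.

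**Figure D2:**
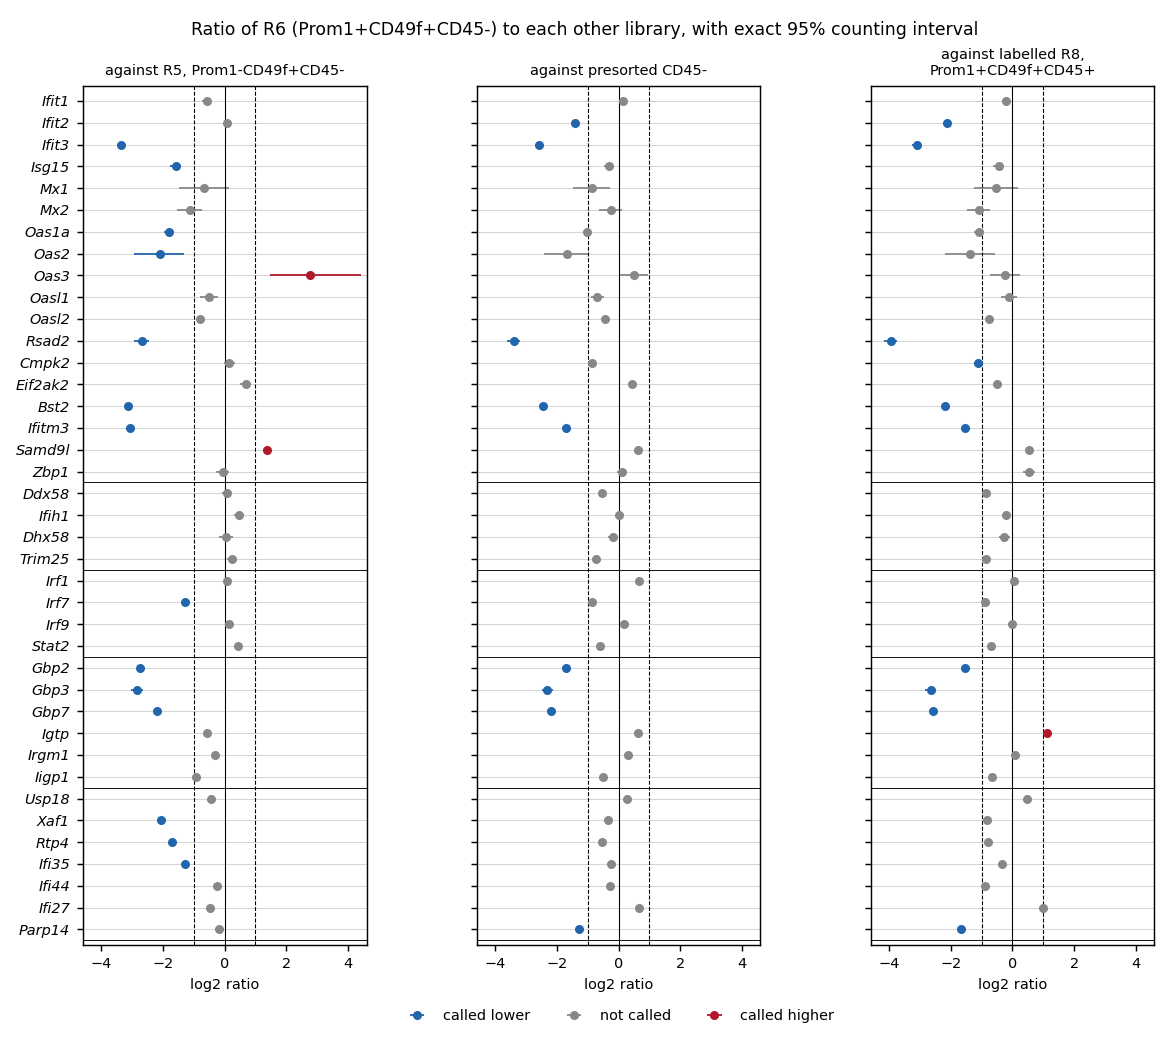
Log2 ratio of R6 to R5 (left), to the presorted library (middle) and to the library labelled R8 (right) for each interferon response gene. Bars are exact 95% counting intervals, dashed lines mark 2-fold, and colours mark calls. Of 39 genes, 14, 9 and 10 are called lower from left to right, and the panels share the R6 library.

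Against the presorted cells, from which it was sorted, R6 had 9 members lower (23.1%) and 0 higher, while 15.6% of all genes were called lower and 27.6% higher. The median log2 ratio was -0.50 over the members and 0.12 over all genes. Over all genes it became -0.14 at 50 or more counts and 0.37 with no filter beyond 1 count. The background is set in part by scarce genes, and among the 15557 genes with at least 50 counts in a library 20.1% were lower and 19.9% higher, so the members' share called lower was near that background. Rsad2 was 10.6-fold lower (9.21 to 12.2), Ifit3 5.97-fold (5.43 to 6.57) and Bst2 5.43-fold (5.16 to 5.71). Gbp3, Gbp7, Gbp2, Ifitm3, Ifit2 and Parp14 followed, from 4.96-fold (4.40 to 5.61) for Gbp3 to 2.43-fold (2.29 to 2.58) for Parp14. Xaf1, Rtp4, Isg15, Irf7 and Ifi35, called lower against R5, were within 2-fold of the presorted level here. Their ratios were 0.794 for Xaf1, 0.688 for Rtp4, 0.810 for Isg15, 0.554 for Irf7 and 0.845 for Ifi35.

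Against the library labelled R8, 10 members (25.6%) were lower in R6 and 1 (2.56%) was higher, with 13.1% of all genes called lower and 12.5% higher. At 50 or more counts, 2402 of 15557 genes were lower and 2469 higher. The median log2 ratio was -0.75 over the members and -0.16 over all genes. Over all genes it became -0.05 at 50 or more counts and -0.47 with no filter beyond 1 count. Rsad2 was 15.4-fold lower (13.4 to 17.8), Ifit3 8.65-fold (7.86 to 9.54) and Gbp3 6.28-fold (5.55 to 7.13). Gbp7, Bst2, Ifit2, Parp14, Ifitm3, Gbp2 and Cmpk2 were lower by between 5.92-fold (5.48 to 6.40) for Gbp7 and 2.18-fold (2.01 to 2.36) for Cmpk2. Igtp was the member called higher, by 2.19-fold (2.05 to 2.34). Ifit3, Rsad2, Bst2, Ifitm3, Gbp2, Gbp3 and Gbp7 were the 7 members (17.9%) called lower against each of the other 3 libraries, as were 6.22% of all genes. That share includes scarce genes, and it was not computed at 50 or more counts. These 3 comparisons share the R6 library and do not support one another.

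R5 cells had 6 members higher (15.4%) and 1 lower (2.56%) than the presorted cells, with 9.77% of all genes called higher and 14.1% lower. At 50 or more counts, 1390 of 15557 genes were higher and 2981 lower. The median log2 ratio was 0.43 over the members and -0.16 over all genes. Over all genes it became -0.30 at 50 or more counts. With no filter beyond 1 count it was 0.52, above the 0.43 of the members. Xaf1 was 3.32-fold higher (3.06 to 3.59), Ifitm3 2.59-fold (2.55 to 2.64) and Isg15 2.43-fold (2.17 to 2.71). Igtp, Rtp4 and Ifi27 were higher by 2.33-fold (2.20 to 2.46), 2.23-fold (2.12 to 2.34) and 2.20-fold (2.12 to 2.29). Ifit2 was 2.81-fold lower (2.60 to 3.03). Of the 7 members low in R6, Ifitm3 was the only one called here, and Gbp2 came next at a ratio of 2.03 (1.92 to 2.14).

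No member was called between the library labelled R8 and the presorted cells (0 higher and 0 lower of 39) with TMM scaling, while 23.8% of all genes were called higher and 12.1% lower. At 50 or more counts the background was 11.5% higher and 16.0% lower. The median log2 ratio was 0.18 over the members and 0.06 over all genes. Over all genes it became -0.13 at 50 or more counts. With no filter beyond 1 count it was 0.84, above the 0.18 of the members. The member ratios ran from 0.671 for Oasl1 to 1.92 for Eif2ak2, and the interval of Eif2ak2, 1.77 to 2.08, reached past 2-fold. The absence of calls depended on the scaling, as 2 members were called higher with library totals. With the authors' normalized values 4 (10.3%) were higher, but by a looser rule. Those values carry no interval, and a ratio beyond 2-fold was enough.

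Transcript length moved with these ratios. Between R6 and R5, the log2 ratio rose with exon length over the 39 members (Spearman 0.58), and over 16040 genes the relation was weaker (0.24). These are descriptions over genes of the same libraries, and genes are not replicates. The 13 shortest members, of 678 to 2790 bases, had a median log2 ratio of -1.58, and the 13 longest, of 5386 to 9306 bases, of 0.07. Between R5 and the presorted cells the relation was opposite in sign (Spearman -0.71 over members, -0.22 over genes), with medians of 1.02 and -0.45. It was weak between R6 and the presorted cells (0.14 over members, 0.05 over genes) and again positive between the library labelled R8 and the presorted cells (0.46 and 0.18). After the running median over genes of like length was subtracted, 13 members were called lower in R6 than in R5, 11 of them among the 14 called before, against 11.9% of all genes, and 1 was called higher, against 16.9%. Isg15, Oas1a and Ifi35 lost the call, as did Samd9l, while Oasl2 and Iigp1 became called lower. The length-adjusted log2 ratios were -2.63 for Ifit3, -2.13 for Bst2, -2.04 for Ifitm3, -2.88 for Rsad2 and -2.60 for Gbp7. Of the 6 members higher in R5 than in the presorted cells, only Xaf1 stayed called after that step and Irgm1 was added. That made 2 called higher, against 10.9% of all genes, and Ifit2 stayed the 1 called lower, against 9.30%. Calls of the marker and pathway lists below are given without this step.

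**Figure D3:**
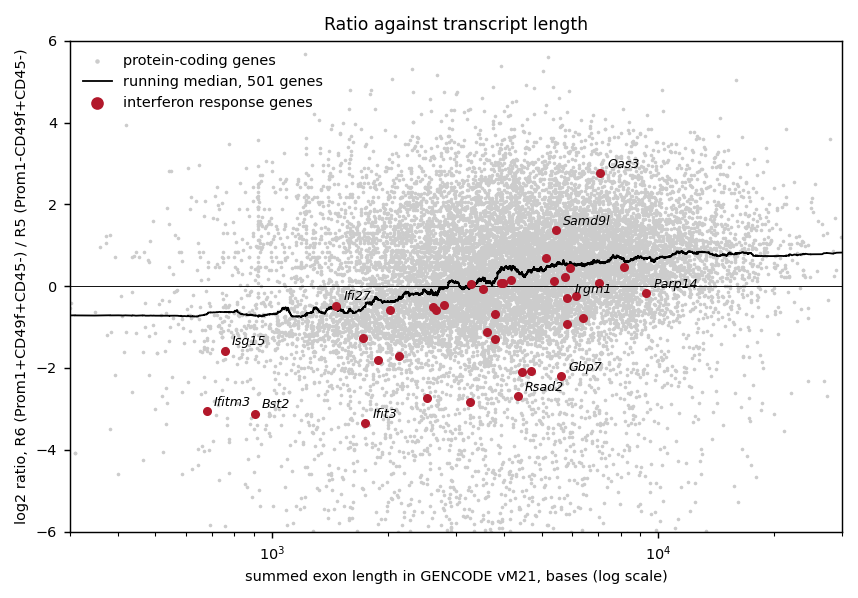
Log2 ratio of R6 to R5 against summed exon length in bases (log axis). Grey points are protein-coding genes, of which those beyond the axis limits are not drawn, the black line is their running median over 501 genes, and red points are the interferon response genes. The line rises with length, and Ifitm3, Bst2, Ifit3, Rsad2 and Gbp7 lie far below it at lengths from 678 to 5614 bases.

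Markers of other cell types differed between the same libraries. The 18 endothelial markers summed to 200 TMM-scaled CPM in R6, 10561 in R5, 22796 in the library labelled R8 and 16829 in the presorted library. All 18 were lowest in R6, where none was at 0: Cdh5, a junction protein of endothelium, was at 1.78, 175, 231 and 163. The 12 cholangiocyte markers went the opposite way, at 24410, 9335, 388 and 3897, and the 12 hepatocyte markers were at 11300, 7762, 890 and 41238. The hepatocyte sum was higher in R6 than in R5 through Alb and Trf, while 7 of the 12 were called lower and 1, Alb, higher. The 12 Kupffer cell and macrophage markers summed to 92.6, 158, 222 and 1117. Csf1r gave 79.1 of the sum in R6, and 9 of the 12 were called lower there than in R5 (median log2 ratio -2.65) with Csf1r the 1 higher. The 9 plasmacytoid dendritic cell markers summed to 53.3, 243, 360 and 367, mostly through Tcf4 (32.7, 212, 340 and 225) and Ly6d (11.8, 27.8, 4.15 and 140). These 2 were called lower in R6 than in R5, while Ccr9 and Spib, on 2 counts and 1 count in R5, were called higher. Of this list, Klk1 and Cox6a2 were at 0 in R6 and R5, Cox6a2 in the library labelled R8 and Pacsin1 in the presorted library. Stellate cell markers summed to 291, 943, 180 and 766 and those of mesothelium and portal fibroblasts to 258, 1277, 384 and 528, while neutrophil, T and NK cell and B cell lists stayed at or below 319 in every library. The stellate sum was higher in R5 than in the presorted cells, though 0 of 9 markers were called higher and 3 lower (median log2 ratio -0.72). It was also higher in R6 than in the library labelled R8, though 6 of 9 were called lower and 2 higher. Of the 11 mesothelial and portal fibroblast markers, 10 were called lower in R6 than in the presorted cells and 1, Gpm6a, higher. The part of these cell types in the interferon response values was not tested. Of the interferon response genes, 21 were highest in R5, 14 in the library labelled R8, 2 in R6 and 2 in the presorted library. No calls were made between R5 and the library labelled R8. Their ratio served only to see whether neighbouring levels of a gene differed beyond counting error.

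Neighbouring members did not always share a pattern. On chromosome 19, Ifit2, Ifit3 and Ifit1 lie within 34550694 to 34650009 (mm10, as all positions here), yet Ifit3 was 5.97-fold lower in R6 than in the presorted cells, Ifit2 2.64-fold lower and Ifit1 at a ratio of 1.11 (1.02 to 1.20). The promoter stretches of Ifit3 and Ifit1 printed above each hold 2 ISRE cores. On chromosome 12, Rsad2 (26442746 to 26456452) and Cmpk2 (26469204 to 26479837) lie side by side on opposite strands. Rsad2 was 10.6-fold lower against the presorted cells, and Cmpk2 was 1.84-fold lower (1.70 to 1.98) and not called. On chromosome 3, Gbp7, Gbp3 and Gbp2, between 142530342 and 142638008, were all called lower. The ISRE core was in the promoter window of 7 of the 7 matched members called lower against each other library and of 10 of the 22 other matched members. Before the start alone, the counts were 6 of 7 and 7 of 22. These groups were formed from calls in the same data, and 3 of the 7 are the neighbouring Gbp genes. Whether the core bears on the calls was not tested. Igtp and Irgm1, which were not called lower in R6, hold the core too.

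Some members overlap other annotated genes. Igtp shares its strand with Irgm2, Irf9 with Rnf31, and Rtp4, Gbp7 and Parp14 with unnamed transcripts or a pseudogene, while Irf7 overlaps Phrf1 and Rtp4 overlaps Masp1 on the other strand. The sources used here do not say how the counting treated strand and shared reads, so these members are uncertain.

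Of the interferons themselves little was seen. Among 21 interferon genes, 3 had at least 10 counts in any library, and the highest counts were 18 for Ifnz and 11 for Ifnb1 in R6 and 11 for Ifnb1 and for Ifna15 in the library labelled R8. These correspond to 0.525, 0.321, 0.443 and 0.443 TMM-scaled CPM, below the background percentile of their libraries. Ifnb1 had 0 counts in R5 and 1 in the presorted library, and the ratio of R6 to the presorted library, 14.3 (2.07 to 614), rests on that count. Ifng, the gamma interferon gene, had 0, 0, 3 and 4 counts. In the presorted library Ifnz, at 0.180 TMM-scaled CPM, and Ifng, at 0.0900, were above the background percentile of 0.0450.

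Among the 6 receptor genes, the lambda receptor and chains of the other receptors went opposite ways in R6. Ifnlr1, specific to lambda interferon, was at 14.3, 1.91, 0.282 and 2.12, and was 7.50-fold higher (5.09 to 11.5) in R6 than in R5 and 6.76-fold higher (5.41 to 8.52) than in the presorted cells. Ifnar2, of the type I receptor, was at 64.4, 238, 169 and 184, and was lower by 3.69-fold (3.50 to 3.90) and 2.85-fold (2.72 to 2.99) in those comparisons. Ifngr2, of the gamma receptor, was at 44.3, 131, 128 and 131, and was lower by 2.96-fold and 2.95-fold. Ifnar1 at 79.0, 45.0, 113 and 119, Ifngr1 at 169, 212, 132 and 180, and Il10rb at 122, 169, 135 and 135 were not called in either comparison. Thus 1 of 6 receptor genes was higher and 2 of 6 lower in each, beside 15.5% higher and 12.7% lower of all genes against R5 and 27.6% and 15.6% against the presorted cells.

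Among the kinase and STAT genes, Jak1, which serves all 3 receptor types, was at 197, 482, 1805 and 1481, and was 2.45-fold lower in R6 than in R5 and 7.53-fold lower than in the presorted cells. Jak2 was at 63.3, 35.4, 157 and 133, Tyk2 at 29.9, 12.8, 43.8 and 47.7, and Stat3 at 201, 112, 293 and 340. None of these 3 was called in either comparison. Against the presorted cells, R5 had Jak1, Jak2, Tyk2 and Stat3 lower, where 14.1% of all genes were lower. Ratios to R5 and of R5 moved with transcript length, and the length trend was not subtracted from these values.

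**Figure D4:**
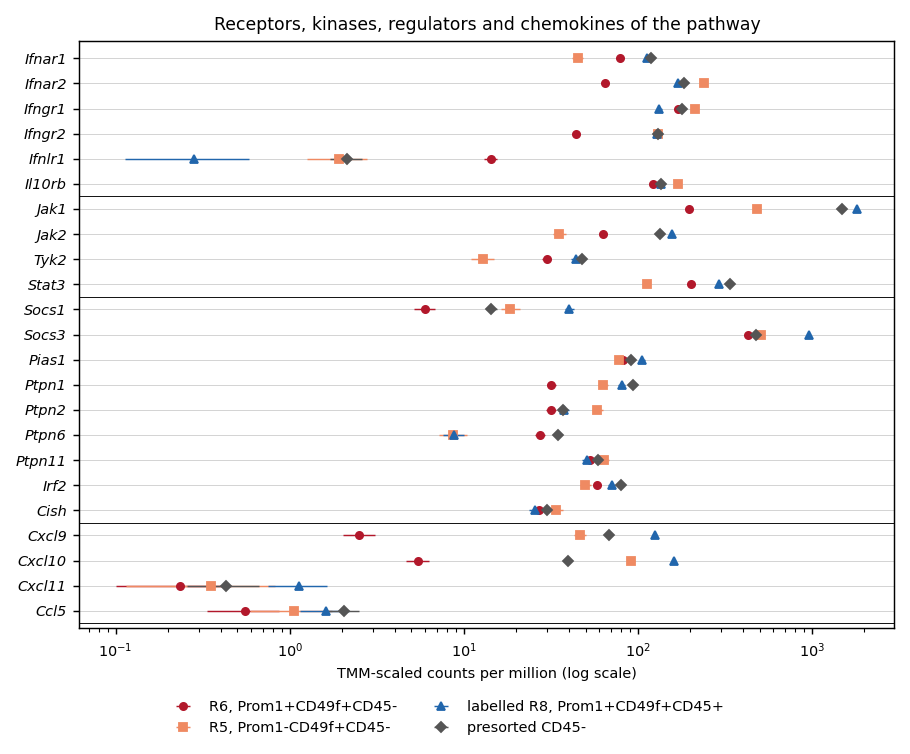
Levels of selected interferon receptor, kinase, STAT, regulator and chemokine genes in the 4 libraries, in TMM-scaled CPM on a log axis, with exact 95% Poisson intervals for counting error. Ifnlr1 lies highest in R6, and Ifnar2, Ifngr2, Jak1, Socs1, Cxcl9 and Cxcl10 lie lowest there.

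Among 9 negative regulators, Socs1, an inhibitor of the receptor kinases, was at 5.98, 18.5, 40.4 and 14.4. It was 3.09-fold lower (2.57 to 3.73) in R6 than in R5, the only one of the 9 called lower, while the phosphatase gene Ptpn6 was 3.15-fold higher (2.61 to 3.83). Socs3 was at 427, 511, 964 and 479 and Ptpn1 at 31.8, 62.7, 80.5 and 93.9. Against the presorted cells 2 of 9, Socs1 and Ptpn1, were lower and 0 were higher. Of 17 tested genes of nucleic acid sensing and interferon induction, 3 were higher and 3 lower in R6 than in R5, and 0 and 4 against the presorted cells. Of all genes 15.5% were higher and 12.7% lower against R5, and 27.6% and 15.6% against the presorted cells, so the counts lower were near the background. Ifi204, a DNA sensor, was at 2.01, 72.3, 180 and 123 and so was lowest in R6. Tmem173 (STING) was at 81.6, 102, 81.9 and 76.4, close to level, and Tlr3, a receptor for double-stranded RNA, was 2.38-fold higher (2.12 to 2.68) in R6 than in R5.

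Of 4 interferon-inducible chemokine genes, Cxcl9 and Cxcl10 were low in R6. Cxcl9, a T cell attractant, was at 2.51, 46.5, 125 and 68.3, and Cxcl10, which acts on the same receptor, at 5.43, 91.0, 161 and 39.4. Cxcl9 was 18.6-fold lower (14.8 to 23.5) and Cxcl10 16.8-fold lower (14.4 to 19.7) than in R5, and these were the 2 of 4 called. Cxcl11 and Ccl5 stayed at or below 2.05 in every library. Against the presorted cells 3 of 4 were lower, Ccl5 on 19 and 91 counts. Of all genes, 12.7% and 15.6% were called lower in these comparisons.

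Of 13 genes of antigen presentation on class I molecules, 7 were lower and 1 higher in R6 than in R5, and 0 were called against the presorted cells, beside 12.7% lower and 15.5% higher of all genes in the first. B2m, the light chain, was at 1236, 4461, 1934 and 1948, and H2-D1, a heavy chain, at 3790, 7760, 4192 and 5020. H2-K1, another heavy chain, was at 2455, 2979, 1614 and 1890 and was not called. H2-T23 was at 340, 1119, 722 and 659. Nlrc5, the activator of these genes, was the one called higher, at 32.5, 12.8, 17.8 and 18.0. R5 had 4 of 13 above the presorted cells, B2m, Psmb8, Psmb10 and Psme2, beside 9.77% of all genes. The length trend seen in comparisons with R5 was not subtracted from these class I values. Class I heavy chain genes are close copies, which makes their separate values uncertain.

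Among 60 further interferon-inducible genes, 25 were lower and 7 higher in R6 than in R5, and 25 lower and 4 higher against the presorted cells. Of all genes, 12.7% were lower and 15.5% higher in the first comparison, and 15.6% and 27.6% in the other. The medians of their log2 ratios were -0.43 and -0.67, beside 0.45 and 0.12 over all genes. Ifitm2, next of kin to Ifitm3, was at 131, 812, 1148 and 1097, and Lgals3bp, a secreted glycoprotein gene, at 196, 510, 489 and 525. Ly6e, a surface protein gene, was at 1680, 2465, 346 and 873 and was called in neither. The 4 genes higher than in the presorted cells were Tgtp1 at 471, 148, 8.66 and 70.0, Tgtp2 at 439, 492, 227 and 193, Gbp8 at 40.4, 24.9, 5.44 and 10.2, and Apobec3 at 184, 48.9, 39.2 and 61.0. Tgtp1 and Tgtp2 encode near-identical GTPases of the immunity-related family, so reads may be divided between them. Mb21d1, Gbp5 and Gbp6, also on the lists, were not analysed here.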

How the data were processed

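RNA sequencing of 4 liver cell populations (1 library each, RNA of 2 mice pooled) was analysed from the deposited gene tables. The authors deposited estimated counts per gene, and a second table of their normalized values, which are CPM with 1 added. The divisor that these values imply was larger than the summed counts. The summed counts were 67.1% of it in R6, 88.4% in R5, 82.4% in the library labelled R8 and 77.3% in the presorted library. TopHat2, Partek 3 and mm10 are named in the submitters' processing notes, and the annotation, counting mode and settings were not given in the sources used here. Per the labels' protocols, libraries were polyA-selected and stranded, with 12 to 14 amplification cycles for low input and 6 to 10 for higher input, while the series title names Quant-seq, which was not resolved. The columns of the sorted cells carry the design text's population numbers, and the column named only CD45 was taken as the presorted CD45- cells.

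Identifiers were matched to GENCODE vM21 symbols (40254 matched, 874 not). Estimated counts were rounded and scaled by TMM factors (edgeR 4.0.16, R 4.3.3) over the 21640 genes that reached 10 counts in any library. Ratios carry exact 95% conditional binomial (Clopper-Pearson) intervals, and a call needs the whole interval beyond 2-fold. Ratios of the authors' normalized values, used only as an alternative, carry no interval and were called on the ratio alone. Intervals and floors cover counting error only, as amplified reads without molecular identifiers are not independent molecules. With 1 library a group, no test was computed. The members, roles, pathway lists and markers were chosen with earlier results of these data known. All members were described. Every library's value was given for members that reached 100 counts in any library, and for each pathway list the calls, up to 4 genes with the highest mean level, and genes against the list's majority. Receptor, regulator and chemokine genes beyond that rule were named after their values were seen. Alternatives were library totals, DESeq2 1.42.0 size factors, the authors' normalized values, a minimum of 50 counts, no filter beyond 1 count, subtraction of the length trend (running median of 501 genes), a 3-fold limit and, added after seeing the data, TMM factors without the library labelled R8. Some genes of the kinase and STAT list are not reported here.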

Additional observations from a re-analysis of the deposited data

How the results depend on the processing

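No median over the 39 genes changed sign under the alternatives that give one. The stricter 3-fold limit gives counts only. The median over all genes, set beside it, did change sign with the count minimum, except for R6 against the library labelled R8. Library totals gave medians of -0.34 (R6 against R5, the first), -0.08 (R6 against presorted, the second), 0.61 (R5 against presorted, the third) and 0.52 (library labelled R8 against presorted), and 2 members higher in R6 and in the library labelled R8 against presorted, and in R6 against the library labelled R8. DESeq2 size factors gave -0.74 for the first and 0.60 for the third. The authors' normalized values gave medians of -0.28, 0.71 and 0.61 against presorted cells (R6, R5, library labelled R8) and -0.89 for the last, with 13 members higher in R5 and 4 in the library labelled R8 than in presorted cells, and 18 lower and 0 higher in the last comparison (R6 against the library labelled R8). With the length trend removed, the medians against presorted cells were -0.33 for R6 and 0.38 for the library labelled R8, and members called higher numbered 1 in the first comparison, 2 in the third and 0 in the last. Beyond 3-fold, members called higher numbered 0, 1 and 0 in those, and lower 0 in the third and 6 in the last. Counts and shares called with the authors' values rest on the ratio alone, without an interval, which is a looser rule than elsewhere. Apart from the stricter limit and this looser rule, the cause of the shifts was not tested. Scaling moved all genes alike: in the first comparison the median of all genes was 0.45 as reported, 0.68 with library totals and 0.28 with DESeq2, and the share of calls that were higher was 54.8%, 66.9% and 45.5%. In the third these shares were 40.9%, 52.5% and 51.5%, with 55.3% for the authors' values, and in the second 63.8% and 73.5% with library totals. TMM factors without the library labelled R8 left the values they cover identical, since each factor is set against a reference library. No paired analysis was possible because each population had 1 library, and for the same reason no library could be left out within a population. Depth limits Oas2, Oas3 and Mx1, which had few counts.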
